A study of Rattus norvegicus with 3 samples.

Results

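The mevalonate to squalene enzymes carry acetyl-CoA units through mevalonate to squalene and its epoxide. The list was drawn by symbol from textbook knowledge of the pathway, with earlier results of these data known. It held 9 genes (Acat2, Hmgcs1, Mvk, Pmvk, Mvd, Idi1, Fdps, Fdft1 and Sqle). Of these, 8 were measured, by 11 of the 20932 array probes with a gene symbol, out of 15925 named genes in all. No probe was named for Hmgcs1, the cytosolic synthase of hydroxymethylglutaryl-CoA, so it has no value here. The cells were NR8383, an established rat alveolar macrophage line in culture, without any other cell of the lung. They were exposed for 24 h to CNT-1 or to CNT-2, both single-wall carbon nanotubes free of impurities, each at 0.1 mg/mL and dissolved with 1 mg/mL bovine serum albumin (BSA). The third group was the control for both, which the labels call an untreated control and also a solvent control with BSA. Cells grew in medium with fetal bovine serum before the nanotube solutions took its place, and the labels do not say whether those solutions held serum or whether the control medium was changed too. An effect of nanotubes and one of the change of medium therefore cannot be told apart. The sources used here do not say how CNT-1 and CNT-2 differ. Each group had 1 column of values, with no replicate column, so every difference below describes these arrays, without a p-value.

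The pathway begins with acetyl-CoA units that a cytosolic thiolase joins, and runs by way of mevalonate. Kinases and a decarboxylase then make isopentenyl diphosphate, the building unit of all isoprenoids, and prenyl transferases lengthen it to farnesyl diphosphate. There the path divides, since farnesyl diphosphate feeds protein prenylation, dolichol and ubiquinone as well as squalene and the sterols. The genes of the pathway are known as targets of the SREBP transcription factors, which are released from the endoplasmic reticulum when its membrane holds little cholesterol, and which act beside NF-Y, a factor that binds CCAAT boxes. In macrophages this synthesis stands beside uptake of lipoproteins and beside cholesterol efflux.

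The values are differences from an unstated baseline on a log scale presumed to be log2, centred per probe, so they hold no expression level and cannot show whether macrophage marker genes were expressed. Over all genes the median difference from control was -0.04 in CNT-1 and 0.04 in CNT-2, and CNT-2 had a median of 0.15 over CNT-1. Centring each column on its 75th percentile moved these medians to -0.10, -0.40 and -0.23, and spike-in centring moved them to 0.003, -0.18 and -0.12. Median centring and quantile normalization moved the last of the 3 medians to 0.03 and -0.001. These scalings also moved the balance of calls over all genes. In CNT-2 minus control 1616 genes (10.1%) were at least 1 higher and 1045 (6.56%) at least 1 lower. With 75th percentile centring these counts were 838 (5.26%) and 2295 (14.4%), and with spike-in centring 1139 (7.15%) and 1565 (9.83%). After quantile normalization they were 729 (4.58%) and 663 (4.16%). In CNT-1 minus control the counts were 184 (1.16%) higher and 342 (2.15%) lower, and 604 (3.79%) and 709 (4.45%) after quantile normalization. In CNT-2 minus CNT-1 they were 1484 higher and 740 lower, against 1185 and 942 with median centring, 768 and 1563 with 75th percentile centring, 401 and 368 after quantile normalization and 915 and 1245 with spike-in centring. The 10 spike-in probes themselves, which report RNA added to each sample, lay at -0.05 ± 0.07 in CNT-1 minus control and at 0.23 ± 0.10 in CNT-2 minus control (SD over probes). Among 11 measured macrophage markers the median difference from control was 0.07 with either nanotube, which in CNT-2 turned negative under all 4 scalings tried, to -0.36 with 75th percentile centring. Their range was -0.69 to 1.02 in CNT-1, with 1 at least 1 higher and none at least 1 lower, a balance of 1 and 1 after quantile normalization. In CNT-2 it was -2.24 to 3.96, with 2 at least 1 higher, Fabp4 at 3.96 and Itgam at 3.46, and 2 at least 1 lower, Mrc1 at -2.24 ± 0.13 and Csf1r at -1.25 ± 0.60 (probe SD, 2 probes each). Among 13 measured markers of other lung and blood cells it was -0.19 in CNT-1 and -0.01 in CNT-2, or 0.08 in CNT-2 after quantile normalization. Of these 13, 1 was at least 1 higher and none at least 1 lower in CNT-1, where the range was -0.79 to 1.61, and quantile normalization gave 2 and 1. In CNT-2 the range was -1.73 to 2.56, with Dcn at least 1 higher, at 2.56, and Vwf at -1.73 ± 1.66 (probe SD, 2 probes) and Nkg7 at -1.67 at least 1 lower. The part of these shifts in the results was not tested. In RNA from whole cultures, fewer cells of a kind and less RNA per cell cannot be told apart.

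As gene means, all 8 measured enzymes were higher than control after either nanotube. Of all genes, 42.1% lay above the control in CNT-1 and 53.5% in CNT-2. In CNT-1 minus control the median difference of the enzymes was 1.77, with a range of 0.95 to 2.28. The median over all genes was -0.04. In this comparison 6 of the 8 were at least 1 higher (2-fold, if the scale is log2), as were 1.16% of all genes, and none was at least 1 lower, as were 2.15% of all genes. The remaining members lay just under that limit, Pmvk at 0.99 and Mvk at 0.95. In CNT-2 minus control the median difference of the enzymes was 2.73, with a range of 1.47 to 3.36, against a median of 0.04 over all genes. All 8 were at least 1 higher in CNT-2, as were 10.1% of all genes, and none was at least 1 lower, as were 6.56%. For Acat2 this rests on the mean of 2 probes, at 3.27 and 0.02 in CNT-2 minus control. All 8 also lay above 0 in both comparisons when the columns were centred on their median, their 75th percentile or the spike-in probes, and after quantile normalization. In CNT-1 all 8 members were above the 95th percentile of all genes, which was 0.50, whereas in CNT-2 that percentile was 1.48, just above the 1.47 of Mvk and below the other members.

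**Figure D1:**
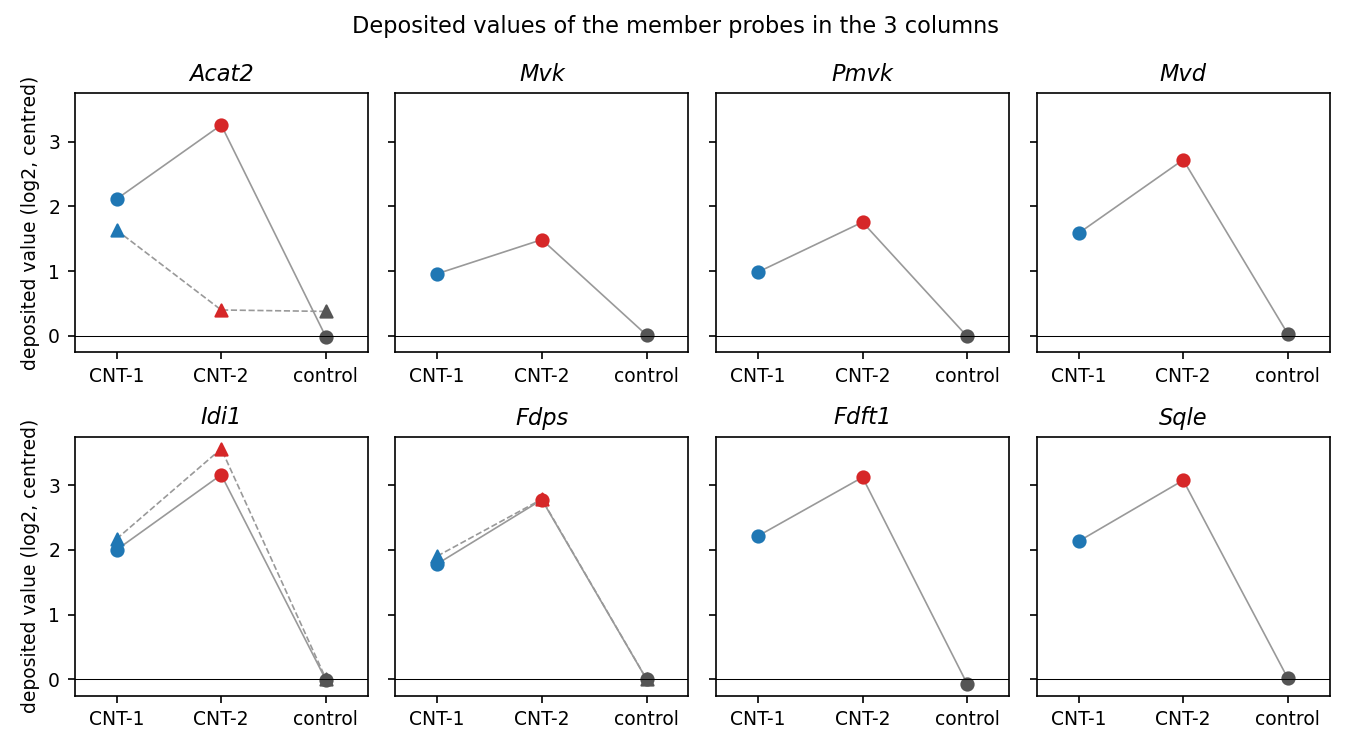
Deposited values (log2, centred per probe, vertical axis) of the 11 probes of the 8 measured enzymes in the CNT-1, CNT-2 and control columns (horizontal axis). Circles and solid lines mark the first probe of a gene, triangles and dashed lines the second. In 10 probes the control lies within 0.1 of 0, as in 72.6% of all gene probes, and both nanotube columns lie above it. The second Acat2 probe is at 0.40 in CNT-2 and 0.38 in the control.

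Acat2, the cytosolic thiolase that joins acetyl-CoA units to acetoacetyl-CoA, was the member whose probes disagreed. The probe that the annotation ties to its RefSeq transcript had a value of 2.11 in CNT-1, 3.26 in CNT-2 and -0.02 in the control. The other probe, tied to a cDNA clone, had 1.63 in CNT-1, 0.40 in CNT-2 and 0.38 in the control. The platform annotation gives the older symbol Acat3 for both. Both probes were thus higher in CNT-1 than in the control, but in CNT-2 the clone's probe was level with the control. As a gene mean, Acat2 was at 1.69 ± 0.62 in CNT-1 minus control and at 1.65 ± 2.30 in CNT-2 minus control (probe SD, 2 probes), so its mean in CNT-2 was smaller than the spread of its probes. The RefSeq probe alone gave a difference of 2.13 in CNT-1 and 3.27 in CNT-2. The clone's probe was also unusual in the control column, since 2.81% of all gene probes lay as far from 0 there. The RefSeq gene table lists a related gene, Acat2l1, and pseudogenes of Acat2, and which of these transcripts each probe reads was not tested.

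The promoters are shown because the measured enzymes moved together, and because CCAAT boxes are counted in the windows below. They come from RefSeq, assembly GRCr8, which had entries for 6 of the 9 genes, Hmgcs1 among them, and none for Pmvk, Fdft1 and Sqle. Each window runs 5′ to 3′ on the gene's strand, from 250 bases before the annotated start to 50 bases after it. For 5 of the 6 windows that start is also the start of the gene in the RefSeq gene table, while the Hmgcs1 window uses a start 2847 bases away from it. Capitals mark CCAAT on either strand (ATTGG where it lies on the other strand) and the core CACNCCAC of the sterol regulatory element, likewise on either strand. The Acat2 promoter (chr1:50100590-50100889, plus strand) held no CCAAT and 1 match to the core, on the other strand at -87 to -80 from the start.
Acat2: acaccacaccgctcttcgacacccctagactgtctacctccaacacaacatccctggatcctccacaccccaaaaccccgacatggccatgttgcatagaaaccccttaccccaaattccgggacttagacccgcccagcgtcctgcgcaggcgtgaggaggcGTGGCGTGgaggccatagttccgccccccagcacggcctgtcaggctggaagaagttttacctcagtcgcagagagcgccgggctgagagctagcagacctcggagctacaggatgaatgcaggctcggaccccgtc

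The kinases of mevalonate had the smallest differences of the single-probe members. Mvk, which phosphorylates mevalonate, had a value of 0.96 in CNT-1, 1.49 in CNT-2 and 0.01 in the control. Pmvk, which adds the next phosphate, had 0.98 in CNT-1, 1.76 in CNT-2 and -0.01 in the control. Their differences from control were close to each other, at 0.95 and 0.99 in CNT-1 and at 1.47 and 1.77 in CNT-2. Mvd, the decarboxylase that makes isopentenyl diphosphate from the product of Pmvk, had 1.58 in CNT-1, 2.72 in CNT-2 and 0.03 in the control. Its differences of 1.56 in CNT-1 and 2.69 in CNT-2 were larger than those of both kinases. The gap between Mvd and Pmvk, 0.56 in CNT-1 and 0.93 in CNT-2, was the widest between neighbouring members in each order. It exceeded the typical spread between probes of a gene, whose median over 3909 genes with 2 or more probes was 0.08 in CNT-1 and 0.19 in CNT-2. That spread is one between probes and says nothing of the spread between cultures. Mvd and Pmvk had 1 probe each, so their own probe spread is not known. Mvk and Pmvk in CNT-1 differed by 0.05, less than the typical probe spread of 0.08. The Mvk promoter (chr12:47819454-47819753, minus strand) held 5 CCAAT boxes and the Mvd promoter (chr19:67414925-67415224, minus strand) held 2.
Mvk: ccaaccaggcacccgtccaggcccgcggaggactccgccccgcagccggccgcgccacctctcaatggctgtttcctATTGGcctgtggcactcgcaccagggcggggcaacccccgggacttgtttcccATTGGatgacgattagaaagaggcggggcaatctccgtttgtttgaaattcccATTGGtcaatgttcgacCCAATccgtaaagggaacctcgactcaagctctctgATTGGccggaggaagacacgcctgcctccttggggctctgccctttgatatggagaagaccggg
Mvd: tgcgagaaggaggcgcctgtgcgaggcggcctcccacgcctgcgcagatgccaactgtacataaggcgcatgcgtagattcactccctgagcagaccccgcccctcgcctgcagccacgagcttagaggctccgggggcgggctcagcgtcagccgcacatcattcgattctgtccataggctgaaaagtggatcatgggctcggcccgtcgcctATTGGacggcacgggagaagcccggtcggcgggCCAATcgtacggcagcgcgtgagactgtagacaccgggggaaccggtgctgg

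Idi1, the isomerase that turns isopentenyl diphosphate into dimethylallyl diphosphate, had values of 2.00 and 2.17 in CNT-1, 3.16 and 3.56 in CNT-2, and -0.01 and 0.01 in the control, from 2 probes. Fdps, which condenses these units to farnesyl diphosphate, had 1.78 and 1.90 in CNT-1, 2.77 and 2.78 in CNT-2, and 0.001 and 0.004 in the control. The probes of either gene stood in the same order of columns, CNT-2 above CNT-1 above control. The difference from control was 2.08 ± 0.11 in CNT-1 and 3.36 ± 0.27 in CNT-2 for Idi1, and 1.84 ± 0.08 in CNT-1 and 2.78 ± 0.004 in CNT-2 for Fdps (probe SD, 2 probes each). Idi1 had the largest difference of the members in CNT-2, where it ranked 136 of 15925 genes, and it ranked 11 in CNT-1. Fdps ranked 202 in CNT-2 and 16 in CNT-1. The Idi1 promoter (chr17:66547475-66547774, minus strand) held 2 CCAAT boxes on the other strand. The Fdps promoter (chr2:176804767-176805066, minus strand) held 2, with 1 on each strand.
Idi1: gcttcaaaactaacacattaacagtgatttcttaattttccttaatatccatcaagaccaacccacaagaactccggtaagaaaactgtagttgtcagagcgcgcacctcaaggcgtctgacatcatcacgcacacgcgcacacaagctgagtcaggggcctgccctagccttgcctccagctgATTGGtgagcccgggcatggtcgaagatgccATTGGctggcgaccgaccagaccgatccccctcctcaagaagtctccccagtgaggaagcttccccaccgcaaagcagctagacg
Fdps: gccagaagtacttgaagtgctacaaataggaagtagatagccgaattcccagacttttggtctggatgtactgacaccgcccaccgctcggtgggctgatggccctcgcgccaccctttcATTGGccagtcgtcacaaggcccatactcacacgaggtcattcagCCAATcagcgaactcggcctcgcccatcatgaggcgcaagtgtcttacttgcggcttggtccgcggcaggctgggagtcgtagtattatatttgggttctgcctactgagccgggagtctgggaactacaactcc

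The enzymes past the branch point were among the members furthest above control. Fdft1, the squalene synthase, which commits farnesyl diphosphate to sterols, had a value of 2.21 in CNT-1, 3.12 in CNT-2 and -0.07 in the control. Sqle, the epoxidase that acts on squalene, had 2.13 in CNT-1, 3.08 in CNT-2 and 0.02 in the control. Both were far above the control in either nanotube column, each by 1 probe. Fdft1 had the largest difference of the members in CNT-1, 2.28, at rank 6 of 15925, and 3.19 in CNT-2, at rank 154. Sqle was at 2.12 in CNT-1, at rank 10, and at 3.06 in CNT-2, at rank 171. The ranks were nearer the top in CNT-1 although the differences were larger in CNT-2, where more genes lay far from the control. In CNT-2, Idi1, Fdft1 and Sqle followed each other with gaps of 0.17 and 0.13, both under the typical probe spread of 0.19. In CNT-1, Sqle and Idi1 were 0.03 apart.

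**Figure D2:**
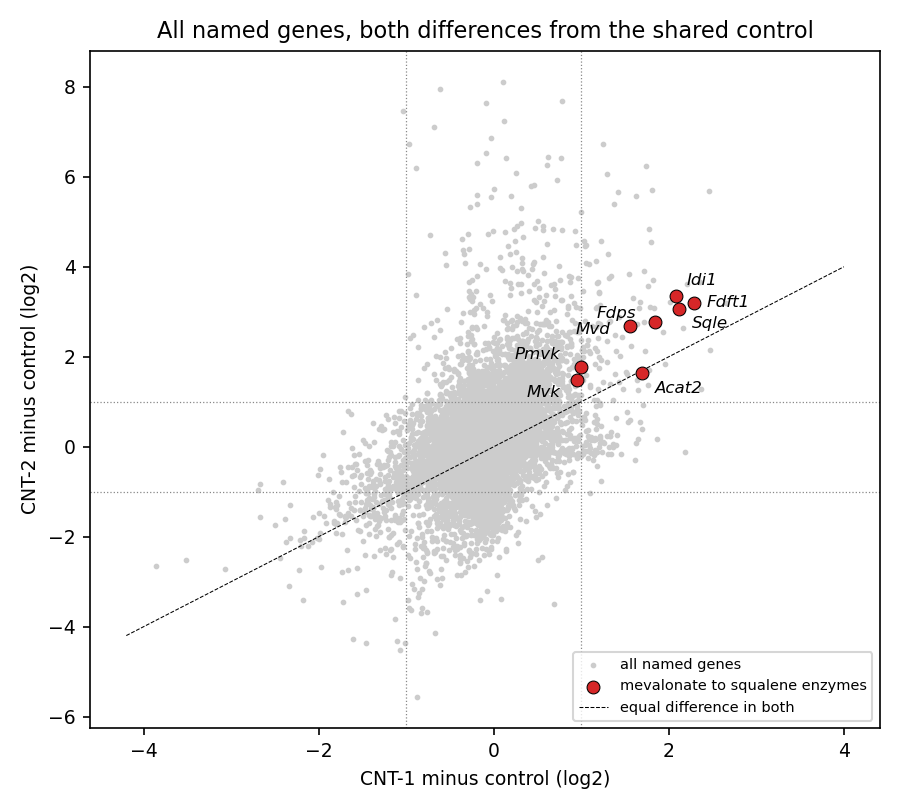
Difference from control in CNT-1 (horizontal axis, log2) against that in CNT-2 (vertical axis, log2) for all 15925 named genes (grey) and the 8 measured enzymes (red). Dotted lines mark differences of 1 and -1 and the dashed line equal differences in both, which share 1 control column. The enzymes lie in the upper right, between 0.95 and 2.28 in CNT-1 and between 1.47 and 3.36 in CNT-2. Acat2 lies on the dashed line as the mean of 2 disagreeing probes (probe SD 0.62 in CNT-1, 2.30 in CNT-2).

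Set against each other directly, CNT-2 lay above CNT-1 for 7 of the 8 enzymes, as it did for 63.3% of all genes. The median difference of the enzymes was 0.92, against 0.15 over all genes. But after quantile normalization CNT-2 lay above CNT-1 for none of the 8, and the median was -1.38. Quantile normalization gives all columns the same distribution, whereas the deposited columns had SDs over probes of 0.85 in CNT-2 and 0.40 in CNT-1. Under the centrings on median, 75th percentile and spike-in probes the median stayed positive, at 0.80, 0.54 and 0.65, with the same 7 genes above 0. Idi1 was at 1.28 ± 0.17 (probe SD, 2 probes) and Mvd at 1.14, and these 2 were at least 1 higher in CNT-2 than in CNT-1, as were 9.32% of all genes. No enzyme was at least 1 lower, as were 4.65% of all genes. But after quantile normalization none was at least 1 higher, as were 2.52% of all genes, and 6 were at least 1 lower, as were 2.31%. Sqle, Fdps and Fdft1 lay close together at 0.94, 0.94 and 0.91, with gaps under the typical probe spread of 0.17, followed by Pmvk at 0.77 and Mvk at 0.53. Acat2 was at -0.04 ± 1.68 (probe SD, 2 probes), and its RefSeq probe alone was at 1.15. Doses and times were the same for both nanotubes, but with 1 column each no interval of the difference can be given.

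**Figure D3:**
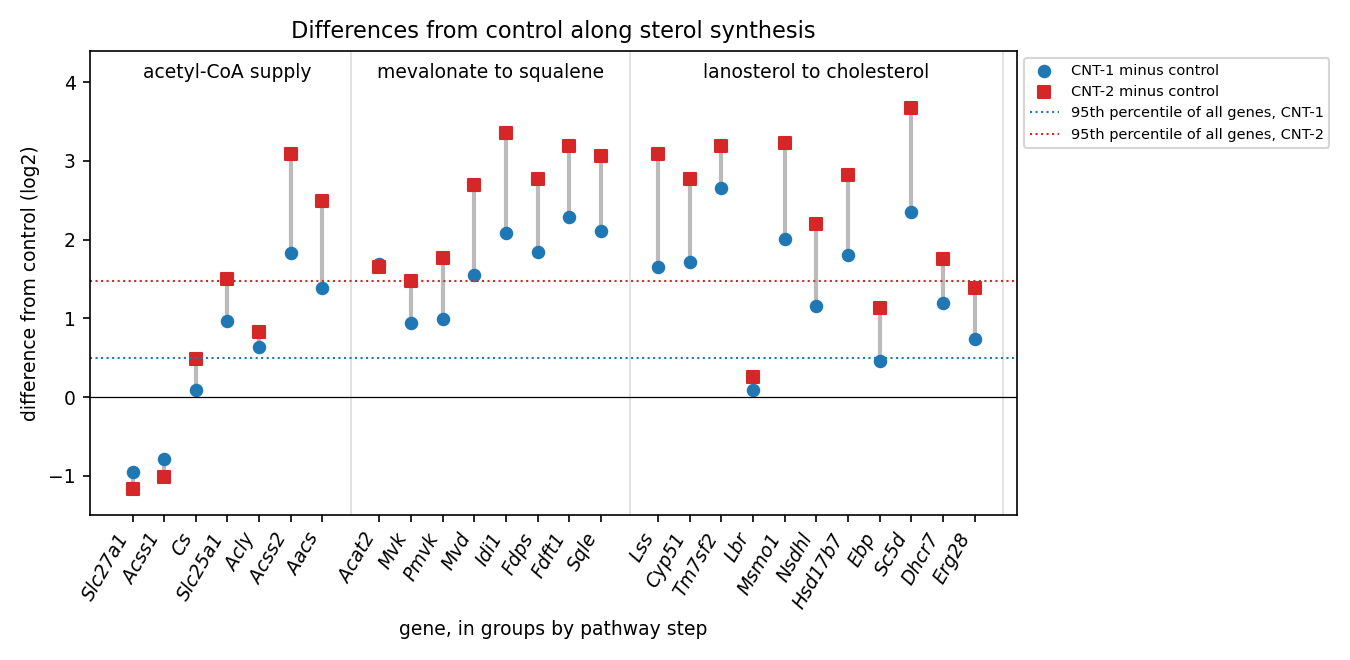
Difference from control (vertical axis, log2) in CNT-1 (blue circles) and CNT-2 (red squares) for the measured genes in groups (horizontal axis). The groups are 7 genes of acetyl-CoA supply and use, the 8 enzymes and 11 genes from lanosterol to cholesterol. Slc27a1, a fatty acid transporter, is drawn in the first group. Dotted lines mark the 95th percentile of all genes, 0.50 in CNT-1 and 1.48 in CNT-2. Red squares lie above blue circles except at Acat2, Acss1 and Slc27a1. The points of Acat2 are means of 2 probes that disagreed. Quantile normalization turns the order of square and circle round at every gene drawn but Acat2 and Cs. Under 75th percentile and spike-in centring the order turns round at Acly and Lbr.

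Most genes of the step after the list, and some of those before it, were at least 1 higher than control. Among all genes 1.16% were at least 1 higher in CNT-1 and 10.1% in CNT-2, and 2.15% and 6.56% at least 1 lower. Of 7 measured genes of acetyl-CoA supply and use, 2 were at least 1 higher in CNT-1, with a median of 0.64, and 3 in CNT-2, with a median of 0.82, while 2 were at least 1 lower in CNT-2, or 2 higher and none lower in CNT-2 after quantile normalization. Acss2, the cytosolic and nuclear acetyl-CoA synthetase, was at 1.83 in CNT-1 and 3.08 in CNT-2. Aacs, which activates acetoacetate in the cytosol, was at 1.39 in CNT-1 and 2.49 in CNT-2, and Slc25a1, the mitochondrial citrate exporter, at 0.97 in CNT-1 and 1.498 in CNT-2. On the lower side Acss1, the mitochondrial acetyl-CoA synthetase, was at -0.79 ± 0.09 in CNT-1 and -1.02 ± 0.68 in CNT-2 (probe SD, 3 probes). Slc27a1, a fatty acid transporter, was at -0.95 ± 0.06 in CNT-1 and -1.17 ± 0.02 in CNT-2 (probe SD, 2 probes). Among 11 measured genes from lanosterol to cholesterol, 8 were at least 1 higher in CNT-1, with a median of 1.66, and 10 in CNT-2, with a median of 2.78. The count of 10 was 8 with 75th percentile centring, 9 with spike-in centring and 7 after quantile normalization, where the median was 1.45. In this group the largest differences in CNT-2 were those of Sc5d at 3.67, Msmo1 at 3.22, Tm7sf2 at 3.20 and Lss at 3.09. Lbr, the sterol reductase of the nuclear envelope, was the member of that group nearest the control, at 0.10 in CNT-1 and 0.25 in CNT-2, or -0.19 in CNT-2 with 75th percentile centring; it was named after its value was seen.

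Relatives of the enzymes that act outside sterol synthesis were not higher as a group. Acat1, the mitochondrial thiolase of ketone body and isoleucine breakdown, was at -0.06 ± 0.02 in CNT-1 minus control and at -0.67 ± 0.04 in CNT-2 minus control (probe SD, 2 probes), so in CNT-2 it was lower while the RefSeq probe of Acat2 was 3.27 higher. Idi2, a relative of Idi1, was at -0.24 in CNT-1 and -0.18 in CNT-2. The 11 measured genes of this group, which also held enzymes of ketone body and fatty acid breakdown, had medians of -0.06 in CNT-1, or 0.03 there after quantile normalization, and 0.03 in CNT-2, which turned to -0.41 with 75th percentile, -0.20 with spike-in and -0.07 with median centring. In CNT-2 minus control 10.1% of all genes were at least 1 higher and 6.56% at least 1 lower. Of the 11 genes, 1 was at least 1 higher in CNT-2, the peroxisomal thiolase Acaa1b at 1.29. And 1 was at least 1 lower there, Scp2, which encodes a thiolase and a sterol carrier, at -2.28 ± 1.63 (probe SD, 2 probes). With 75th percentile centring none was at least 1 higher and 2 were at least 1 lower, and after quantile normalization none and 1. In CNT-1 none of the 11 was past 1 in either direction.

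The branches that use farnesyl diphosphate for other products had medians close to that of all genes. At least 1 higher were 1.16% of all genes in CNT-1 and 10.1% in CNT-2, and at least 1 lower 2.15% and 6.56%. Of 23 measured genes of prenylation, dolichol, ubiquinone and related steps, none was at least 1 higher in CNT-1 and 3 were in CNT-2, and none was at least 1 lower in either. Their medians were 0.04 in CNT-1 and 0.14 in CNT-2, turning to -0.01 and -0.30 with 75th percentile centring, and in CNT-2 to -0.09 with spike-in centring. The 3 were Icmt, the methyltransferase of prenylated proteins, at 1.24, Nus1, a subunit of the dolichol-making prenyl transferase, at 1.23, and Fntb, the beta subunit of farnesyl transferase, at 1.11 ± 0.18 (probe SD, 2 probes). All 3 were under 1 with 75th percentile centring, which left none at least 1 higher and 4 at least 1 lower. They were also under 1 after quantile normalization, Icmt at 0.63, Nus1 at 0.82 and Fntb at 0.61. Spike-in centring gave 2 genes at least 1 higher and 2 at least 1 lower. Ggps1, which makes geranylgeranyl diphosphate from the product of Fdps, was at 0.22 in CNT-1 and 0.27 in CNT-2, or -0.17 in CNT-2 with 75th percentile centring; it was named after its value was seen.

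**Figure D4:**
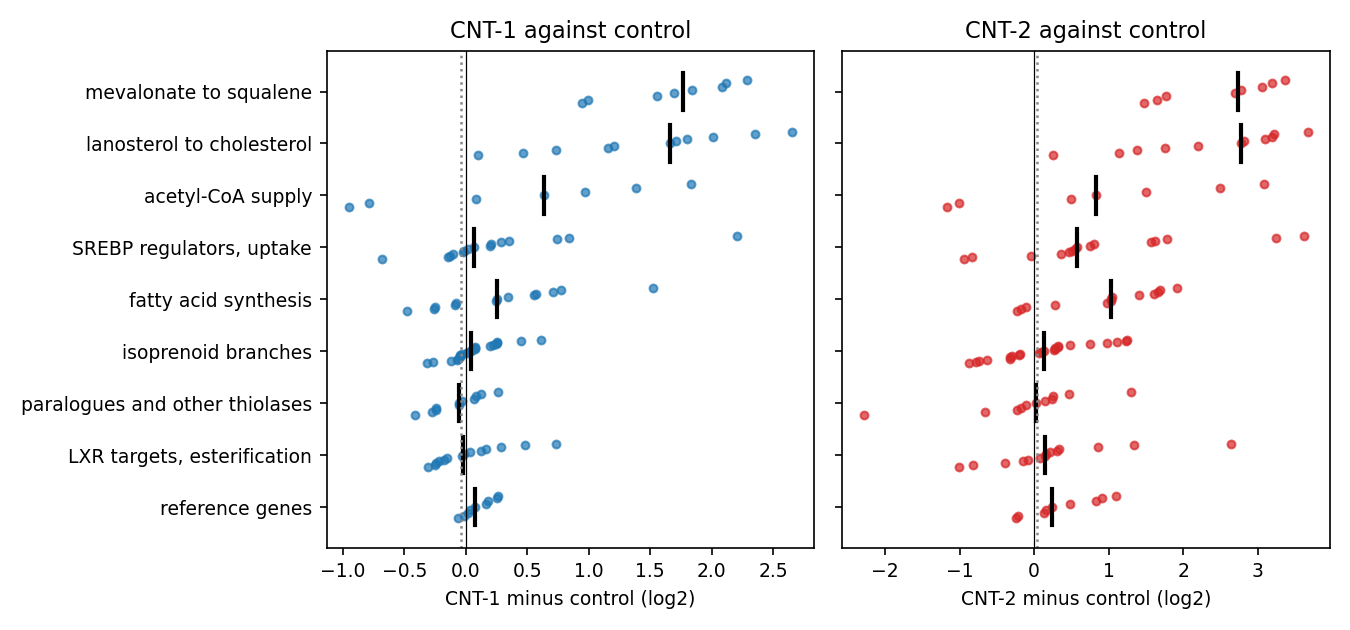
Differences from control (horizontal axes, log2) in CNT-1 (left, blue) and CNT-2 (right, red) for the measured genes of 9 groups (rows), with 1 point per gene, a black bar at the median of the group and a dotted line at the median of all genes. The enzymes of the list and the genes from lanosterol to cholesterol have medians of 1.77 and 1.66 in CNT-1 and of 2.73 and 2.78 in CNT-2, and the other rows have medians of at most 0.64 in CNT-1 and 1.03 in CNT-2.

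Regulators of the pathway were mixed. For the counts below, 1.16% of all genes were at least 1 higher in CNT-1 and 10.1% in CNT-2, and 2.15% and 6.56% at least 1 lower. Of 15 measured SREBP regulators and uptake genes, 1 was at least 1 higher in CNT-1 and 5 in CNT-2, with medians of 0.07 and 0.57. After quantile normalization the counts were 3 in CNT-1 and 3 in CNT-2. None was at least 1 lower, except 2 in CNT-2 with 75th percentile or spike-in centring and 1 with median centring. Insig1, which holds SREBP back when sterols are plentiful, was at 2.20 ± 0.12 in CNT-1 and 3.62 ± 0.20 in CNT-2 (probe SD, 4 probes). Npc1l1, an intestinal sterol importer, was at -0.02 in CNT-1 and 3.24 in CNT-2, Stard4, a sterol carrier, at 0.74 and 1.79, and Insig2 at 0.35 ± 0.05 and 1.62 ± 0.44 (probe SD, 2 probes). Srebf2, the SREBP gene most tied to sterol synthesis, was at 0.84 ± 0.24 in CNT-1 and 0.80 ± 0.17 in CNT-2 (probe SD, 2 probes), and it was named after its value was seen. Fatty acid synthesis, whose genes share SREBP control, had 1 of 13 members at least 1 higher in CNT-1 and 8 in CNT-2, with medians of 0.25 and 1.03, and its largest values in CNT-2 were Scd2 at 1.92 ± 1.06 (probe SD, 3 probes), Elovl1 at 1.68 ± 0.05, Fasn at 1.66 ± 0.29 and Elovl6 at 1.61 ± 0.02 (probe SD, 2 probes each). The count of 8 was 5 with median or spike-in centring, 4 with 75th percentile centring and 1 after quantile normalization, and the median of 1.03 was 0.94, 0.81, 0.60 and 0.48 under these settings in turn. Among 14 LXR, efflux and esterification genes none was past 1 in CNT-1, while in CNT-2 Soat2 was at 2.64, Abca1 at 1.33 and Nceh1 at -1.003. In CNT-2 that is 2 at least 1 higher and 1 lower, against 1 and 2 with 75th percentile centring, 1 and none after quantile normalization and 2 and 2 with spike-in centring. The medians of that group were -0.03 in CNT-1 and 0.15 in CNT-2, and either changed sign under at least 1 centring. The 9 measured reference genes had medians of 0.08 in CNT-1 and 0.24 in CNT-2, or -0.20 in CNT-2 with 75th percentile centring. Of these, Pgk1, a glycolytic kinase, was at least 1 higher in CNT-2, at 1.10, or 0.66 after quantile normalization.

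The genes nearest to the pair of medians of the enzymes, by Euclidean distance over the differences of CNT-1 and CNT-2 from control, were taken from all named genes outside the list. They were Cyp51, the lanosterol demethylase, at a distance of 0.07, Hsd17b7, a sterol ketoreductase, at 0.09, Plac8 at 0.13, Csrp3, a muscle protein, at 0.25 and Acss2 at 0.36. Cyp51 was at 1.71 in CNT-1 and 2.78 in CNT-2, Plac8 at 1.64 and 2.73, and Csrp3 at 1.93 and 2.55. With 2 differences that share a control, likeness here means only a similar pair of values.

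Most of the 6 promoter windows held CCAAT boxes, and few held the sterol element as spelled here. CCAAT on either strand stood in 5 of 6, each with at least 2 boxes, against 37.5% of all 33469 RefSeq promoter windows with at least 1 and 11.2% with at least 2. Acat2 was the window with none. The Hmgcs1 window, with 2 CCAAT boxes, is counted here although that gene has no value in these data. The GC box GGGCGG on either strand stood in 5 of 6, all but Idi1, against 33.1% of all windows. The sterol regulatory element TCACNCCAC was found in none of the 6, against 1.12% of all windows, and its core CACNCCAC, which overlaps it, in 1 of 6, against 5.80%. For comparison, CCAAT stood in 8 of 11 windows of the lanosterol to cholesterol genes and in 4 of 10 of the relatives outside sterol synthesis, and GGGCGG in 10 of 11 and in 7 of 10. Windows were not matched on base composition, a match is not evidence of binding, and no match says only that these letters are not in this window.

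In the Mvk promoter printed above, 4 of the 5 boxes lay on the other strand at -173, -120, -67 and -14 from the start, each 53 bases from the next. The fifth lay on the gene's strand at -50. Of all windows, 0.675% held 4 or more boxes on both strands together. In 103 cases 4 or more boxes lay on 1 strand of a window, and in 8 of these the spacing was constant.

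**Figure D5:**
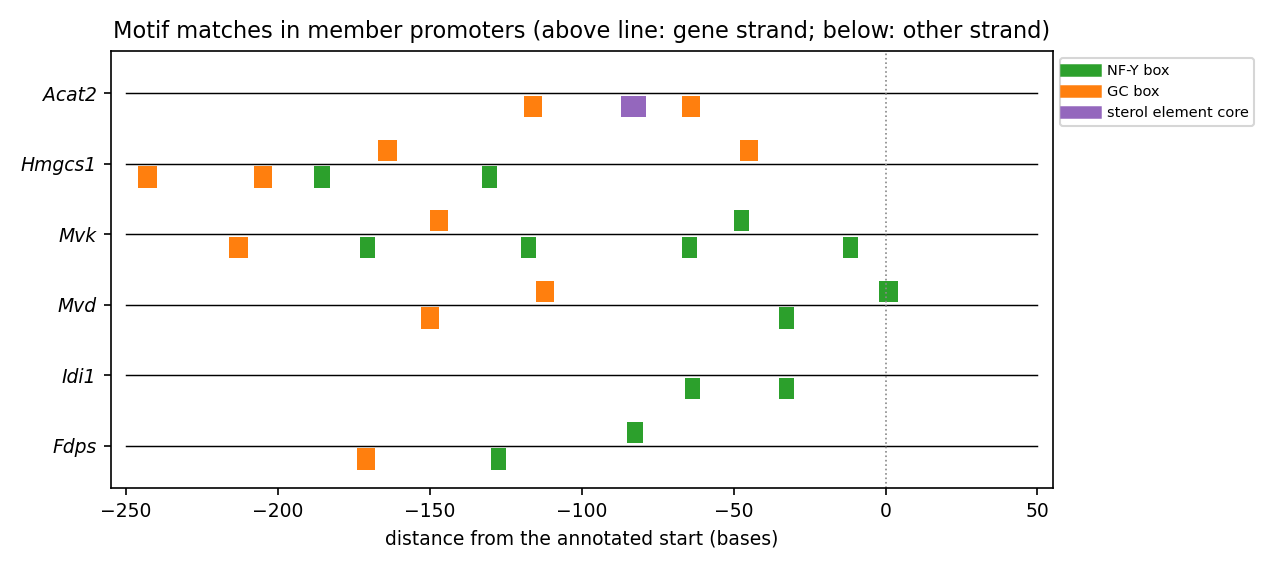
Motif matches in the promoter windows of 6 enzymes (rows) by distance from the annotated start in bases (horizontal axis), with matches on the gene's strand above the line and on the other strand below it. Green marks CCAAT (NF-Y box), orange GGGCGG and purple the core of the sterol regulatory element. The 4 green boxes below the Mvk line are evenly spaced at 53 bases, and Acat2 has no green box.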

How the data were processed

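Cy3-labelled RNA of NR8383 cells was measured on Agilent arrays of 1 colour, per the labels' protocols. The submitters' processing notes name Agilent Feature Extraction 10.7.3.1. The table deposited by the authors holds 1 column per group, 3 in all, for 41103 probes, and its values were taken as log2 differences centred per probe on an unstated baseline. The sources used here do not give the log base, the normalization between arrays or how many arrays stand behind a column. The design text gives an n of 4 and all labels carry replicate number 4. How many arrays were run limits the precision, and 0 columns of other samples were set aside.

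Probes were named by the platform annotation, updated through RefSeq GRCr8 accessions (17424 probes), current symbols (3104) or older symbols (396), with 8 symbols kept and 20171 probes unnamed. The difference of 2 columns was taken per probe and averaged over the probes of a gene, without a filter. A gene was counted when its difference was at least 1. No test was possible with 1 column per group. The members and all gene lists were chosen with earlier results of these data known. Named were all members, up to 4 genes per list and direction past 1 in CNT-2 minus control in order of size, the relatives Acat1 and Idi2, and the 5 genes nearest the members' medians. Lbr, Ggps1 and Srebf2 were named after their values were seen. Some items fixed for the lists are not reported here. Promoter windows came from RefSeq GRCr8 and were searched letter by letter. Alternatives were 4 scalings of the columns, other summaries or subsets of probes, no subtraction of the control, and another log base. Python 3.11.15, pandas 2.3.3, numpy 2.4.6 and matplotlib 3.10.9 were used, and the scripts were tested on simulated data.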

Additional observations from a re-analysis of the deposited data

How the results depend on the processing

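No paired analysis was possible because each group had 1 column. No replicate could be left out, for the same reason. A value was taken as moved when it changed by more than the median probe SD of its comparison, 0.08 for CNT-1, 0.19 for CNT-2 and 0.17 for CNT-2 minus CNT-1, and a count when it changed by more than 1.5 times. Both differences from control stayed above 0 for all 8 enzymes under the alternatives run, but with the probe of smallest difference Acat2 in CNT-2 was at 0.02, level with the control. The median of the enzymes in CNT-1 minus control, 1.77 as reported, was 2.66 after quantile normalization, 1.67 with the probe of smallest difference, 1.86 without subtracting the control, 1.96 with probes near 0 in the control or, chosen after seeing the data, with RefSeq probes only, and 2.55 if the scale is the natural log. In CNT-2 minus control, 2.73 as reported, it was 2.30 with 75th percentile centring, 1.42 after quantile normalization, 2.51 with spike-in centring and 3.94 for the natural log. The count at least 1 higher there was 5 after quantile normalization in place of 8, against 4.58% of all genes. In CNT-2 minus CNT-1 the median, 0.92 as reported, was 0.54, -1.38, 0.65 and 1.33 under the same settings in turn. The count at least 1 higher, 2 as reported, was 0, 0, 1 and 6. Of all genes, 4.82% were at least 1 higher with 75th percentile centring, 2.52% after quantile normalization and 5.75% with spike-in centring. Quantile normalization turned Mvd to -1.01 and Idi1 to -1.41 in CNT-2 minus CNT-1. It gives equal spread to columns whose SDs were 0.40 in CNT-1, 0.85 in CNT-2 and 0.16 in the control. Causes of the shifts were not tested. Without expression levels, signal over background could not be read for any probe.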
